A study of Homo sapiens with 12 samples.

Results

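Mucins, mesothelin and the carcinoembryonic antigen-related cell adhesion molecules (CEACAMs) are surface and secreted glycoproteins of epithelial cells. The 10 genes described here are the membrane mucins MUC1, MUC4, MUC13, MUC16 and MUC20, the secreted gel-forming mucin MUC5AC, mesothelin (MSLN), and CEACAM1, CEACAM5 and CEACAM6. They were found by current symbol in the array platform's probe annotation, and are 10 of 19775 genes that had at least 1 probe set naming exactly 1 gene. These 10 genes have 30 of the 41091 such probe sets (a probe set is the group of short probes whose signals are summarised into 1 value). For each gene the main value is that of its brightest probe set, by the mean of the 12 arrays, and the others are given beside it.

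The arrays came from 2 human pancreatic carcinoma cell lines of unequal metastatic potential, as the title of the series has it. The groups were L3.6pl in hypoxia, L3.6pl in normoxia, FG in hypoxia and FG in normoxia, with 3 arrays each, numbered 1 to 3. Both lines were plated from frozen stock without passaging in DMEM with fetal bovine serum, and hypoxic cultures had air replaced by nitrogen, down to 1% oxygen, for the last 24 h before RNA was taken, while normoxic cultures were left untreated. Each line is a single established cell line, so a difference between the lines is a difference between these lines and not between classes of tumour. The sources used here do not say whether the arrays of a group came from separate cultures, so the p-values measure only the spread between these arrays, which may be technical, and the number of arrays limits their precision. In bulk RNA, fewer cells that express a gene and less RNA of it per cell cannot be told apart.

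Membrane mucins carry a long, densely O-glycosylated extracellular stretch that holds a barrier above the cell surface, and part of it can be shed. MUC1, MUC4 and MUC16 are widely studied in pancreatic ductal carcinoma, where MUC16 carries the CA125 antigen and binds mesothelin. CEACAM5 (CEA) and CEACAM6 are anchored to the membrane by a lipid, whereas CEACAM1 has cytoplasmic tails that can carry signalling motifs. The CEACAM genes share similar coding sequence, so that a probe made for one can also match another.

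Hypoxia was checked with 3 genes known to respond to it. ADM, which encodes adrenomedullin, NDRG1 and EGLN3, an oxygen-sensing prolyl hydroxylase, rose by 3.72, 3.77 and 3.43 on the log2 scale in L3.6pl and by 4.59, 2.96 and 2.38 in FG (limma, highest adjusted p of the 6 = 0.00116). The array medians lay between 39.1 and 41.4 intensity units, and the arrays of a group correlated at 0.974 to 0.996 over all genes. FG normoxia 1 and L3.6pl hypoxia 3 had the lowest mean correlations with the other arrays of their group, 0.978 and 0.981. Of the markers of duct epithelium, EPCAM lay between 11.96 and 12.46, KRT7 between 10.15 and 11.11, SOX9 between 5.48 and 8.92 and CFTR between 3.73 and 4.28 on the log2 scale over the 12 arrays.

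Promoter sequences are shown for the CEACAM genes because at least 1 probe set of each of the 3 rose with hypoxia in L3.6pl, although other CEACAM1 and CEACAM5 probe sets did not pass. Each run is the 250 bases before the transcription start in RefSeq, build GRCh38.p14, written 5′ to 3′ on the gene's own strand. CEACAM5 (chr19:41708376-41708625, plus strand) and CEACAM6 (chr19:41755280-41755529, plus strand) are followed by CEACAM1 (chr19:42528482-42528731, minus strand), and capitals mark the motif CACGTG.
CEACAM5: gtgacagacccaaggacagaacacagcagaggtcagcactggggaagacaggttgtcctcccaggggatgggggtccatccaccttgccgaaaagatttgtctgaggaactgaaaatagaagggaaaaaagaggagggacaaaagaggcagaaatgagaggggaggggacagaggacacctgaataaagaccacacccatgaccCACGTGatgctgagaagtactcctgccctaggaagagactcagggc
CEACAM6: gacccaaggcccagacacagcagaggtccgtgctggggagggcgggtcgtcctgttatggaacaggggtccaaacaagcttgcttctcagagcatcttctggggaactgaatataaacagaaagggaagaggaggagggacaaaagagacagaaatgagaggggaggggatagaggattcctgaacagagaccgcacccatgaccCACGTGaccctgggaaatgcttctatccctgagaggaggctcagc
CEACAM1: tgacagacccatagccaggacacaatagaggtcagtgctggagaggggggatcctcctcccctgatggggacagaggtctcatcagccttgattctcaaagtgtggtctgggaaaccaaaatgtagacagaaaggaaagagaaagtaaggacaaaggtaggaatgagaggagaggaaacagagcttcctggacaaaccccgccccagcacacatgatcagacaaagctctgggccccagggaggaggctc

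The CEACAM5 and CEACAM6 windows had 190 identical bases, or 76.0% of 250, while CEACAM5 and CEACAM1 had 66.8% and CEACAM6 and CEACAM1 70.8%. Windows of other pairs of different member genes had 44.0% to 55.2%. The core of the hypoxia response element, searched as ACGTG or GCGTG on both strands, was found on each strand within the CACGTG of CEACAM5 and of CEACAM6, starting 46 and 45 bases before the start in CEACAM5 and 45 and 44 in CEACAM6. It was not found in the CEACAM1 window. Of all 35116 promoter windows of that length, 43.2% held ACGTG or GCGTG and 6.34% held CACGTG. RefSeq's table held windows for 7 of the 10 members. Of these, MUC4 held the core once, 59 bases before its start, and no match was found in the windows of MUC1, MUC13 and MUC16. A match describes the letters in this window and says nothing of binding.

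Hypoxia was compared with normoxia in each line, and L3.6pl with FG in each oxygen condition, by limma over all genes with Benjamini-Hochberg adjustment and a threshold of 0.05. In L3.6pl, CEACAM6 and MUC1 rose in hypoxia and no member fell, where 3.89% of all genes rose and 2.97% fell. In FG, MUC16 was the member that rose and none fell, where 4.24% of all genes rose and 6.47% fell. Between the lines in hypoxia, CEACAM6 was higher in L3.6pl and MSLN and MUC13 were lower, where 10.0% of all genes were higher and 6.72% lower. In normoxia MSLN and MUC13 were again lower in L3.6pl and no member was higher, where 5.16% of all genes were higher and 5.54% lower. The hypoxia effects of the 2 lines differed in the limma fit for no member at its main probe set (1 had an unadjusted p below 0.05), and for 0.0253% of all genes. The median log2 difference of the 10 members lay at 0.22 in L3.6pl and 0.03 in FG for hypoxia, and at -0.08 in hypoxia and -0.07 in normoxia for L3.6pl against FG, against -0.02, -0.03, 0.02 and 0.02 over all genes.

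**Figure D1:**
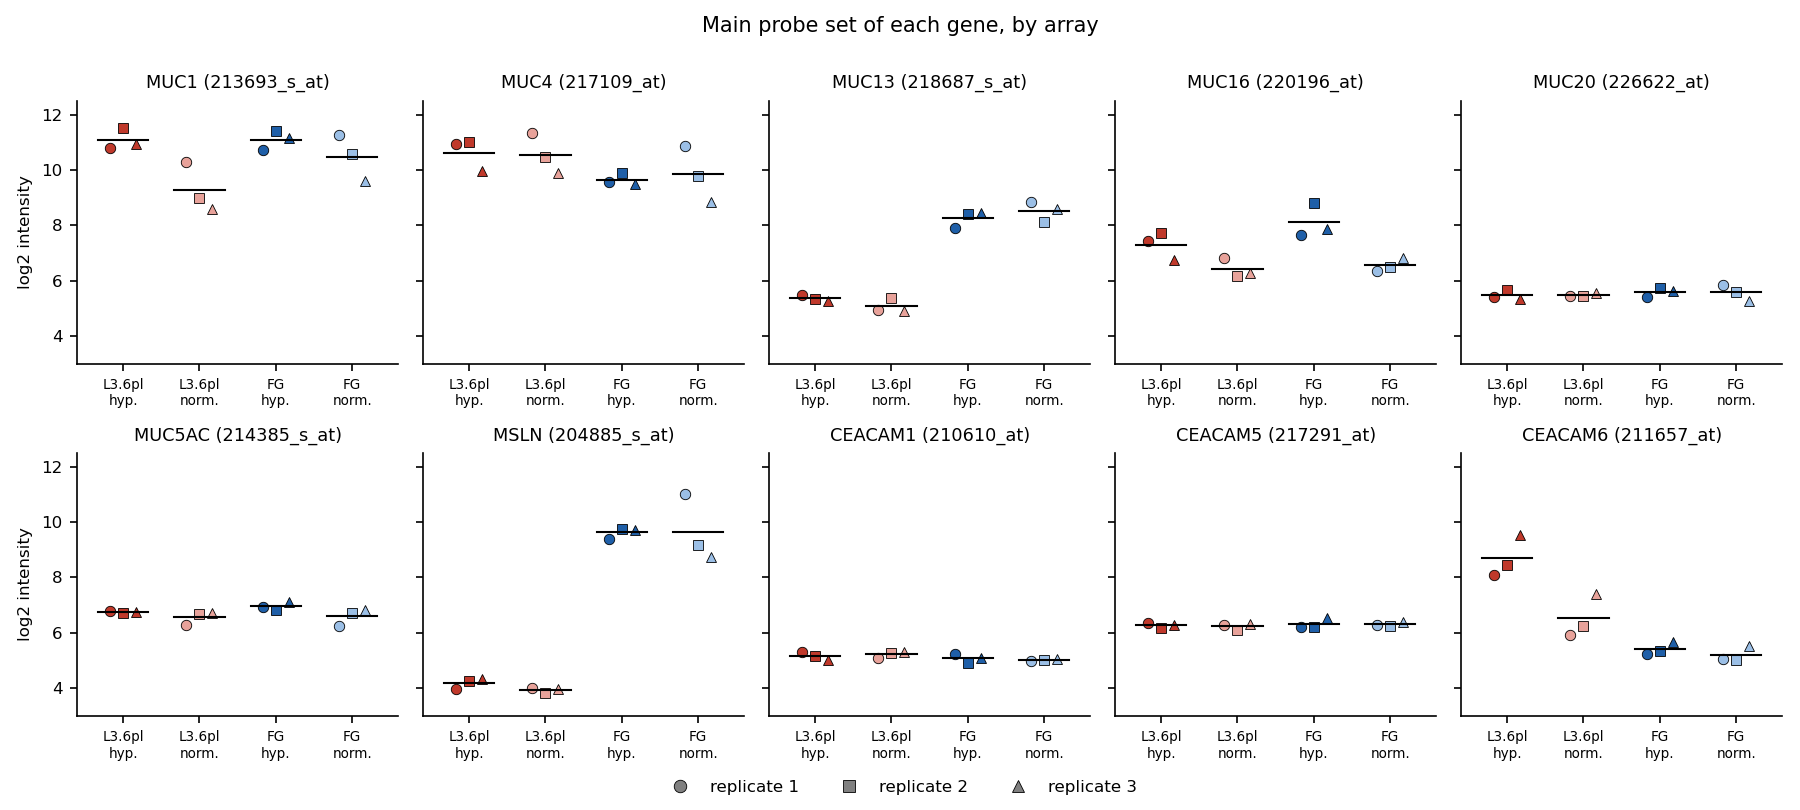
Log2 intensity of the main probe set of each of the 10 genes in the 12 arrays, by group, with 1 point per array, the marker giving the replicate number and the line the group mean. MSLN and MUC13 separate the lines, CEACAM6 is highest in hypoxic L3.6pl, and the group mean of MUC16 is highest in hypoxic FG, where the arrays overlap those of hypoxic L3.6pl.

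Each probe set was also tested singly, over all 41091. Of the 30 probe sets of the members, 5 rose and 1 fell with hypoxia in L3.6pl, where 3.33% of all probe sets rose and 2.64% fell. In FG 2 rose and none fell, where 4.9% rose and 6.53% fell. Between the lines, 7 were higher and 3 lower in L3.6pl in hypoxia, where 7.77% of all probe sets were higher and 6.11% lower, and 1 was higher and 3 lower in normoxia, where 3.73% were higher and 4.75% lower. The 5 that rose in L3.6pl and the 7 that were higher in it in hypoxia were all CEACAM probe sets, of 9 in total. The hypoxia effects of the lines differed for 1 of the 30, a CEACAM5 probe set, and for 0.0633% of all probe sets.

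**Figure D2:**
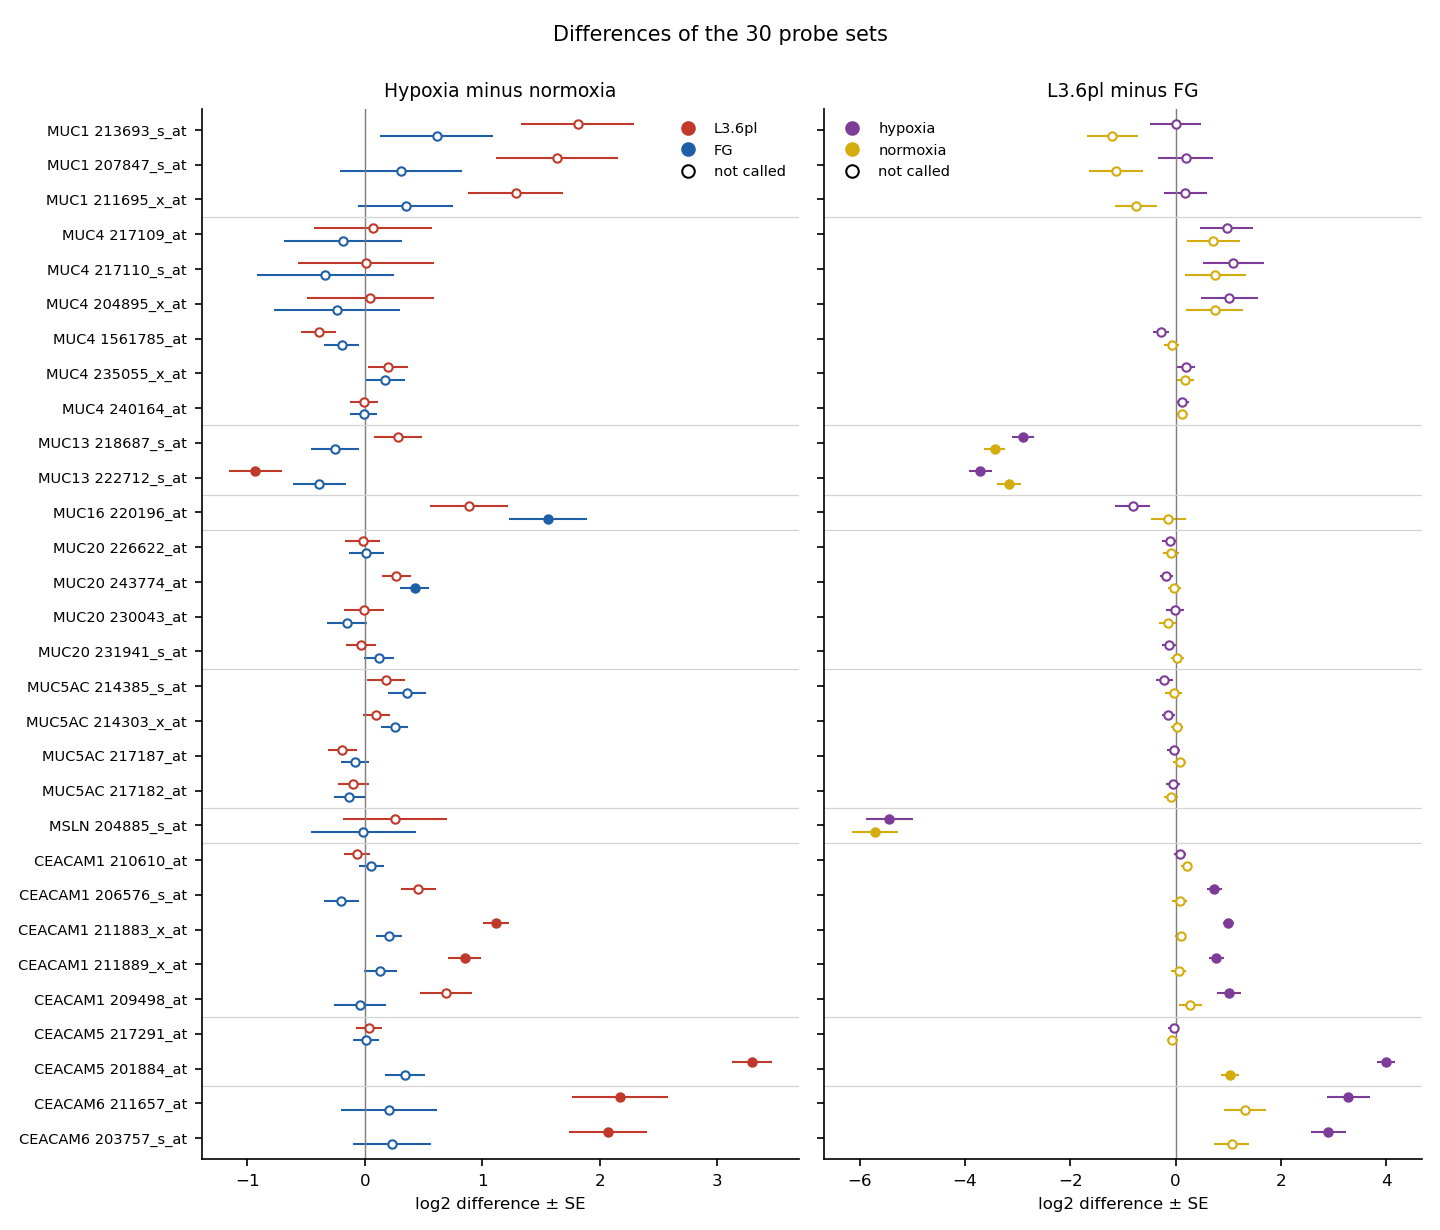
Log2 difference ± SE of each of the 30 probe sets, for hypoxia minus normoxia (left, L3.6pl in red and FG in blue) and L3.6pl minus FG (right, hypoxia in purple and normoxia in yellow); filled points passed the threshold in the probe-set fit. The points farthest to the right on the left panel are CEACAM5 and CEACAM6 in L3.6pl, and the points farthest to the left on the right panel are MSLN and MUC13.

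Between the lines, same-numbered arrays deviated together, with correlations of their deviations from the group means of 0.36 to 0.46 in hypoxia and 0.53 to 0.73 in normoxia. The comparison was therefore also fitted with the replicate number as a block within each oxygen condition. With this block 5 members passed in hypoxia and 5 in normoxia, where 30.0% and 23.1% of all genes passed in either direction. In hypoxia these were MUC4 and CEACAM6, higher in L3.6pl, and MUC13, MUC16 and MSLN, lower. In normoxia MUC4 and CEACAM6 were higher and MUC1, MUC13 and MSLN lower. Among the 30 probe sets, 10 were higher and 4 lower in hypoxia and 6 higher and 6 lower in normoxia, where 25.9% and 18.3% of all probe sets passed in either direction.

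MUC1 is a membrane mucin whose cytoplasmic tail takes part in signalling. Its main probe set, 213693_s_at, read 10.81, 11.51 and 10.95 log2 units in hypoxic L3.6pl and 10.29, 8.97 and 8.58 in normoxic L3.6pl. In FG it read 10.73, 11.41 and 11.14 in hypoxia and 11.27, 10.58 and 9.58 in normoxia. The L3.6pl groups did not overlap, whereas the FG groups did, with FG normoxia 1 above the lowest hypoxic FG arrays.

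MUC1 rose in L3.6pl by 1.81 ± 0.48 on the log2 scale (SE), or 3.51-fold, with an adjusted p of 0.0467 in the limma gene fit. The call ended without any 1 of 9 arrays (hypoxic FG 1, 2 or 3, normoxic FG 2, hypoxic L3.6pl 1, 2 or 3, or normoxic L3.6pl 2 or 3), with adjusted p up to 0.172 without hypoxic L3.6pl 2, and the probe-set fit gave 0.0524. The gene call also ended with the mean of all probe sets (adjusted p = 0.0671) and with cyclic loess (adjusted p = 0.0518). It ended as well in the fit of the L3.6pl arrays alone (adjusted p = 0.0746). The other MUC1 probe sets had differences of 1.63 (207847_s_at, adjusted p = 0.0976) and 1.29 (211695_x_at, adjusted p = 0.0946) in L3.6pl. In FG the difference was 0.61 (adjusted p = 0.519). The hypoxia effects of the lines differed by 1.20 ± 0.67 (adjusted p = 0.789). L3.6pl minus FG was -0.0009 in hypoxia and -1.20 in normoxia, where the adjusted p was 0.158 without the block and 0.000505 with it.

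MUC4, a large membrane mucin that can associate with the receptor ERBB2, had 217109_at as its main probe set. It read 10.92, 11.00 and 9.95 in hypoxic L3.6pl and 11.33, 10.45 and 9.89 in normoxic L3.6pl. The values were 9.56, 9.89 and 9.50 in hypoxic FG and 10.88, 9.79 and 8.84 in normoxic FG. Every hypoxic L3.6pl array lay above every hypoxic FG array, whereas the normoxic groups overlapped.

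MUC4 differed by 0.97 ± 0.50 between L3.6pl and FG in hypoxia (adjusted p = 0.238, and 0.00361 with the block) and by 0.72 ± 0.50 in normoxia (adjusted p = 0.479, and 0.0203 with the block). Hypoxia minus normoxia was 0.07 in L3.6pl (adjusted p = 0.962) and -0.19 in FG (adjusted p = 0.886). The probe sets 217110_s_at and 204895_x_at differed by 1.10 and 1.02 between the lines in hypoxia and by 0.76 and 0.74 in normoxia. The other 3 MUC4 probe sets had means of 4.59 to 5.55 over the 12 arrays and passed in no comparison.

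MUC13, a membrane mucin best known from the gut epithelium, separated the lines. Its main probe set, 218687_s_at, read 5.48, 5.34 and 5.27 in hypoxic L3.6pl, against 7.91, 8.41 and 8.45 in hypoxic FG. It read 4.95, 5.38 and 4.91 in normoxic L3.6pl, against 8.83, 8.13 and 8.58 in normoxic FG. All 6 L3.6pl arrays lay below all 6 FG arrays.

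MUC13 was 7.44-fold lower in L3.6pl in hypoxia (log2 difference -2.90 ± 0.20, adjusted p = 9.18e-06) and 10.8-fold lower in normoxia (-3.44 ± 0.20, adjusted p = 3.22e-06). These calls held in all alternatives run. Hypoxia minus normoxia at this probe set was 0.29 in L3.6pl (adjusted p = 0.490) and -0.25 in FG (adjusted p = 0.534).

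The second MUC13 probe set, 222712_s_at, differed between the lines by -3.71 in hypoxia (adjusted p = 4.83e-06) and -3.16 in normoxia (adjusted p = 1.52e-05). In L3.6pl it read 4.40, 4.20 and 4.50 in hypoxia and 5.32, 4.92 and 5.65 in normoxia, and fell by 0.93 ± 0.22 log2 units (adjusted p = 0.0363). The main probe set differed in the other direction there, and both lay in the dim range. That fall did not pass without any 1 of 6 arrays (hypoxic FG 2, normoxic FG 2, hypoxic L3.6pl 1 or 2, or normoxic L3.6pl 1 or 3), with adjusted p up to 0.137. Its difference in FG was -0.39 (adjusted p = 0.338).

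MUC16 has 1 probe set, 220196_at. It read 7.65, 8.80 and 7.88 in hypoxic FG and 6.34, 6.49 and 6.83 in normoxic FG, with no overlap. In L3.6pl it read 7.43, 7.73 and 6.73 in hypoxia and 6.82, 6.15 and 6.27 in normoxia, where L3.6pl hypoxia 3 lay inside the normoxic range.

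MUC16 rose in FG by 1.56 ± 0.33 on the log2 scale, or 2.94-fold (adjusted p = 0.0128). This call held in all alternatives run, with differences of 1.21 to 1.80. In L3.6pl the difference was 0.89 ± 0.33 (adjusted p = 0.142), and it passed without L3.6pl hypoxia 3 (1.17, adjusted p = 0.0438). The lines' effects differed by -0.67 ± 0.46 (adjusted p = 0.845), so a larger effect in FG was not shown. L3.6pl minus FG was -0.81 in hypoxia (adjusted p = 0.129, and 0.0280 with the block) and -0.14 in normoxia (adjusted p = 0.889).

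MUC20, a membrane mucin known to interact with the receptor MET, was dim. Its main probe set, 226622_at, lay between 5.28 and 5.84 in all arrays and passed in no comparison. The probe set 243774_at read 5.64, 5.46 and 5.54 in hypoxic FG and 5.32, 5.03 and 5.02 in normoxic FG, a rise of 1.34-fold (0.42 ± 0.12, adjusted p = 0.0467). The call ended without any 1 of the 9 arrays other than normoxic FG 1 and hypoxic L3.6pl 1 and 3, with adjusted p up to 0.147 without hypoxic FG 1. In L3.6pl its difference was 0.27 (adjusted p = 0.243). The other MUC20 probe sets averaged 4.19 and 3.53.

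MUC5AC, a gel-forming mucin of gastric and airway epithelium that appears in pancreatic precursor lesions, passed in no comparison. Its main probe set, 214385_s_at, averaged 6.75 ± 0.03 in hypoxic L3.6pl, 6.57 ± 0.23 in normoxic L3.6pl, 6.96 ± 0.14 in hypoxic FG and 6.60 ± 0.31 in normoxic FG (SD, n = 3 each). Hypoxia minus normoxia was 0.18 in L3.6pl (adjusted p = 0.602) and 0.36 ± 0.16 in FG (adjusted p = 0.206). L3.6pl minus FG was -0.22 in hypoxia (adjusted p = 0.446) and -0.04 in normoxia. The other 3 probe sets averaged 6.66, 5.68 and 5.04 over the 12 arrays.

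MSLN, a lipid-anchored surface protein of mesothelium that many pancreatic carcinomas express, had the greatest difference of the members between the lines. Its single probe set, 204885_s_at, read 3.99, 4.25 and 4.33 in hypoxic L3.6pl, against 9.40, 9.76 and 9.73 in hypoxic FG. It read 3.99, 3.84 and 3.97 in normoxic L3.6pl, against 11.01, 9.18 and 8.73 in normoxic FG. All L3.6pl arrays lay more than 4 log2 units below all FG arrays, and below the median of all genes, 6.30.

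MSLN was 43.4-fold lower in L3.6pl in hypoxia (log2 difference -5.44 ± 0.44, adjusted p = 2.3e-05) and 52.3-fold lower in normoxia (-5.71 ± 0.44, adjusted p = 2.1e-05), in every alternative run. The deposited values carry no detection call, so these folds depend on the signal of a dim probe set in L3.6pl. Hypoxia minus normoxia was 0.26 in L3.6pl (adjusted p = 0.822). In FG it was -0.01 (adjusted p = 0.993), with normoxic FG 1 far above the other arrays. Without FG normoxia 1 the FG difference was 0.67 (adjusted p = 0.0314).

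Other mesothelial markers lay, on average, below the median of all genes in both lines. The mean over the 5 measured markers WT1, CALB2, UPK3B, LRRN4 and DES was 4.95 to 5.25 in hypoxic L3.6pl, 5.27 to 5.37 in normoxic L3.6pl, 5.54 to 5.59 in hypoxic FG and 5.53 to 5.70 in normoxic FG. Of the 5, 1 was higher (CALB2) and 2 lower (WT1 and UPK3B) in L3.6pl than in FG in hypoxia, and 1 was lower (UPK3B) in normoxia. In the same order of groups, CALB2 averaged 5.57, 5.475, 5.07 and 5.08, and WT1 4.62, 5.73, 5.61 and 5.87. UPK3B averaged 5.44, 5.49, 6.99 and 7.20. WT1 also fell with hypoxia in L3.6pl. Of 6 fibroblast markers, COL1A1 and COL3A1 were lower in L3.6pl than in FG in hypoxia, COL3A1 also in normoxia, and none was higher. COL3A1 averaged 5.69 in hypoxic L3.6pl, 5.60 in normoxic L3.6pl, 10.63 in hypoxic FG and 11.02 in normoxic FG. COL1A1 averaged 9.49, 8.75, 10.91 and 9.73 in that order of groups. LUM went the other way, at 4.48, 3.59, 2.58 and 2.59, and did not pass. COL1A2, DCN and PDGFRB lay between 5.01 and 5.70 in all arrays. The mean over the list was 5.77 to 6.09, 5.60 to 5.70, 6.65 to 6.70 and 6.34 to 6.58. The part of other cells in the differences of MSLN and MUC13 was not tested.

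CEACAM5 had the greatest response to hypoxia among the members' probe sets. The probe set 201884_at read 9.05, 8.99 and 9.16 in hypoxic L3.6pl and 5.59, 5.53 and 6.20 in normoxic L3.6pl. It read 5.19, 4.84 and 5.20 in hypoxic FG and 4.69, 4.66 and 4.85 in normoxic FG. All hypoxic L3.6pl arrays lay more than 2 log2 units above all the others.

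At this probe set hypoxia raised CEACAM5 9.79-fold in L3.6pl (log2 difference 3.29 ± 0.17, adjusted p = 5.96e-05), and in FG the difference was 0.34 ± 0.17 (adjusted p = 0.257). The effects differed by 2.95 ± 0.24, or 7.73-fold (adjusted p = 0.00340). L3.6pl was 15.9-fold higher than FG in hypoxia (3.99, adjusted p = 5.37e-07) and 2.06-fold higher in normoxia (1.04, adjusted p = 0.00376). These 4 calls held in all alternatives run. The FG means of 5.07 in hypoxia and 4.73 in normoxia lay below the median of all genes, 6.30, with no detection call. The normoxic L3.6pl mean of 5.78 also lay below it. Both the folds over FG and the fold of hypoxia in L3.6pl thus rest on a dim signal.

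The main CEACAM5 probe set by the rule, 217291_at, did not share this pattern. It averaged 6.28 ± 0.09 in hypoxic L3.6pl, 6.24 ± 0.11 in normoxic L3.6pl, 6.31 ± 0.18 in hypoxic FG and 6.30 ± 0.07 in normoxic FG (SD, n = 3 each), and its differences lay between -0.06 and 0.03. The probe sets of CEACAM5 thus disagreed, and which of them reads the transcript was not tested.

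**Figure D3:**
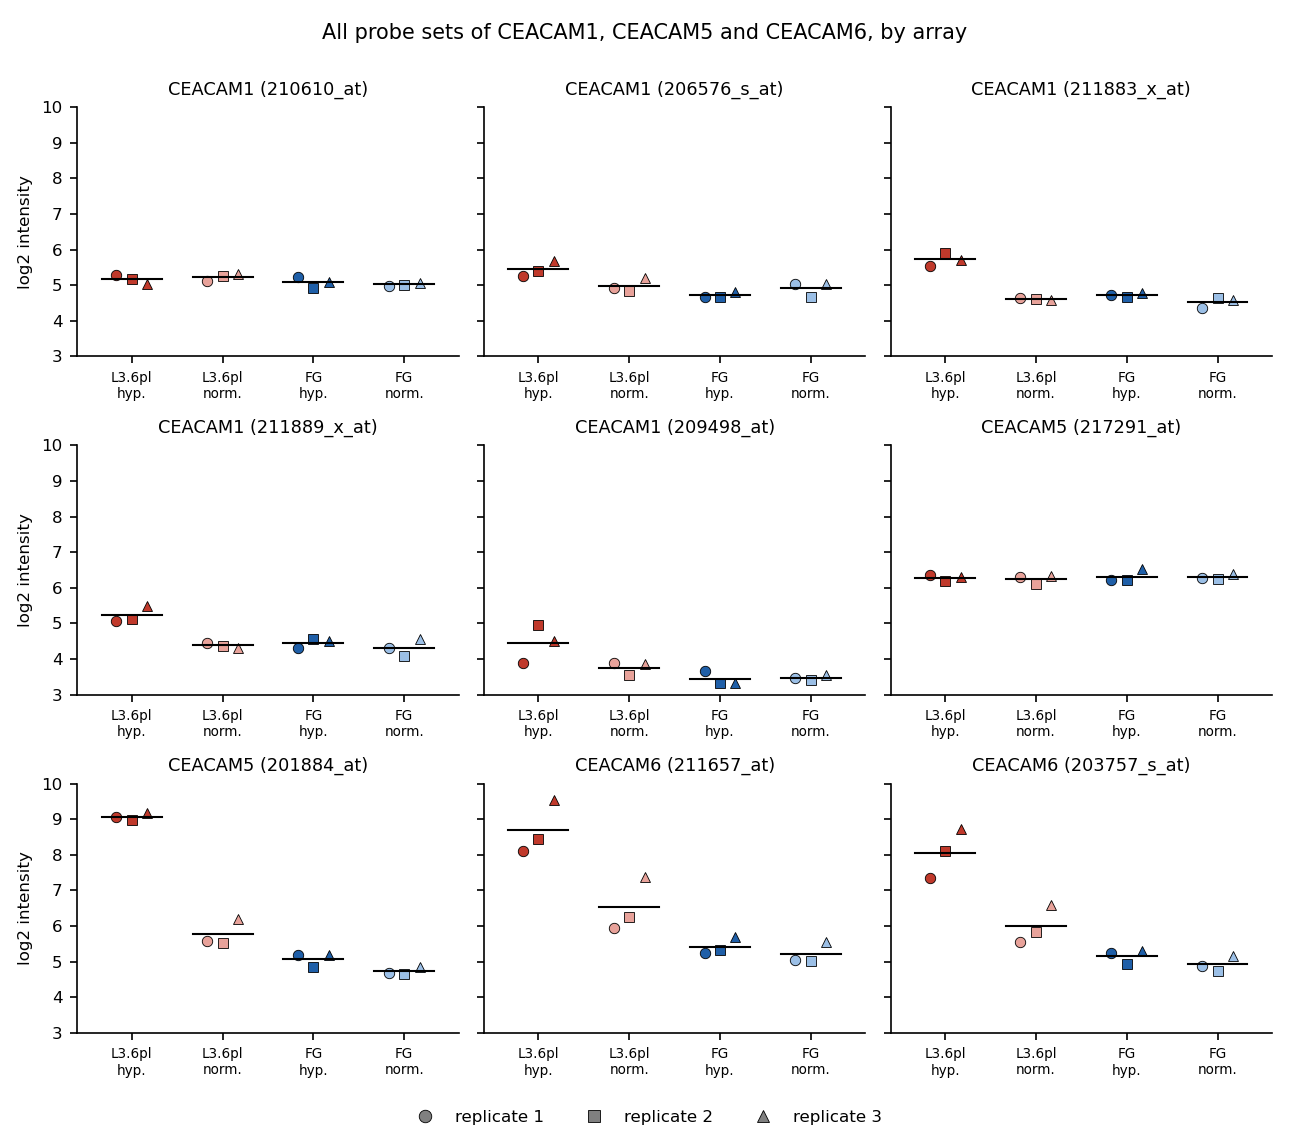
Log2 intensity of the 9 CEACAM probe sets in the 12 arrays, by group, with 1 point per array and the group mean as a line. In 201884_at (CEACAM5) and in both CEACAM6 probe sets hypoxic L3.6pl lies apart from the other groups, whereas 217291_at (CEACAM5) and 210610_at (CEACAM1) are flat.

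CEACAM6 is often raised in pancreatic adenocarcinoma. Its main probe set, 211657_at, read 8.10, 8.45 and 9.53 in hypoxic L3.6pl and 5.94, 6.25 and 7.39 in normoxic L3.6pl. The readings were 5.23, 5.33 and 5.68 in hypoxic FG and 5.05, 5.03 and 5.54 in normoxic FG. The groups ran in the order hypoxic L3.6pl, normoxic L3.6pl, hypoxic FG and normoxic FG, and only the FG groups overlapped. In each group array 3 was the highest.

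CEACAM6 rose 4.50-fold with hypoxia in L3.6pl (log2 difference 2.17 ± 0.40, adjusted p = 0.0102), and in FG the difference was 0.21 (adjusted p = 0.839). The L3.6pl call ended without L3.6pl normoxia 2 (adjusted p = 0.0552) and in the fit of the L3.6pl arrays alone (adjusted p = 0.0584). The difference between the lines' effects, 1.96 ± 0.57, did not pass (adjusted p = 0.365). L3.6pl was 9.73-fold higher than FG in hypoxia (3.28 ± 0.40, adjusted p = 0.000325), where the FG mean of 5.41 was likewise below the median of all genes. In normoxia it differed by 1.32 (adjusted p = 0.0658, and 0.00302 with the block), and passed without L3.6pl hypoxia 3 (adjusted p = 0.0244) or without L3.6pl normoxia 1 (adjusted p = 0.0471).

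The second CEACAM6 probe set, 203757_s_at, read 7.35, 8.09 and 8.73 in hypoxic L3.6pl and 5.55, 5.83 and 6.58 in normoxic L3.6pl, a rise of 4.19-fold (2.07 ± 0.33, adjusted p = 0.00592). In FG its difference was 0.23 (adjusted p = 0.755). It was higher in L3.6pl than in FG by 2.90 in hypoxia (adjusted p = 0.000282) and differed by 1.06 in normoxia (adjusted p = 0.0825, and 0.0220 with the block).

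CEACAM1 has 5 probe sets, all dim. The main one, 210610_at, averaged 5.16 ± 0.14 in hypoxic L3.6pl, 5.23 ± 0.11 in normoxic L3.6pl, 5.08 ± 0.16 in hypoxic FG and 5.02 ± 0.04 in normoxic FG (SD, n = 3 each) and passed in no comparison. The probe set 211883_x_at read 5.55, 5.91 and 5.71 in hypoxic L3.6pl and 4.64, 4.63 and 4.57 in normoxic L3.6pl, and 4.72, 4.68 and 4.77 in hypoxic FG and 4.34, 4.63 and 4.57 in normoxic FG. The hypoxic L3.6pl arrays lay above all the others.

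In L3.6pl hypoxia raised 211883_x_at 2.16-fold (1.11 ± 0.11, adjusted p = 0.000624) and 211889_x_at 1.80-fold (0.85 ± 0.14, adjusted p = 0.00767). The probe sets 206576_s_at and 209498_at differed by 0.46 (adjusted p = 0.102) and 0.69 (adjusted p = 0.104). Against FG in hypoxia, L3.6pl was higher in 4 of the 5 CEACAM1 probe sets, by 1.00 (211883_x_at), 0.78 (211889_x_at), 0.73 (206576_s_at) and 1.01 (209498_at), with adjusted p of 0.000216, 0.00477, 0.00736 and 0.0127. The last of these did not pass without FG hypoxia 2 (adjusted p = 0.0541). No CEACAM1 probe set passed with hypoxia in FG. The suffixes x and s mark probe sets whose probes can match more than 1 transcript, and whether CEACAM1 probe sets also took up CEACAM5 or CEACAM6 RNA was not tested.

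Over the 12 arrays, the deviations of MUC1 and MUC4 from their group means correlated at 0.88 (Pearson, a description over arrays that share scaling and culture conditions). MUC1 and MUC5AC correlated at -0.85, MUC4 and MUC5AC at -0.84, MUC5AC and MSLN at -0.76, and MUC4 and CEACAM6 at -0.75. MUC20 and MSLN correlated at 0.76. Array 1 of normoxic L3.6pl lay 1.01 above its group mean for MUC1 and 0.78 above for MUC4, and array 1 of normoxic FG lay 0.79 and 1.04 above. Array 3 lay below in both groups, at -0.70 and -0.67 in L3.6pl and at -0.90 and -0.996 in FG. For MSLN, normoxic FG 1 lay 1.37 above its group mean.

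**Figure D4:**
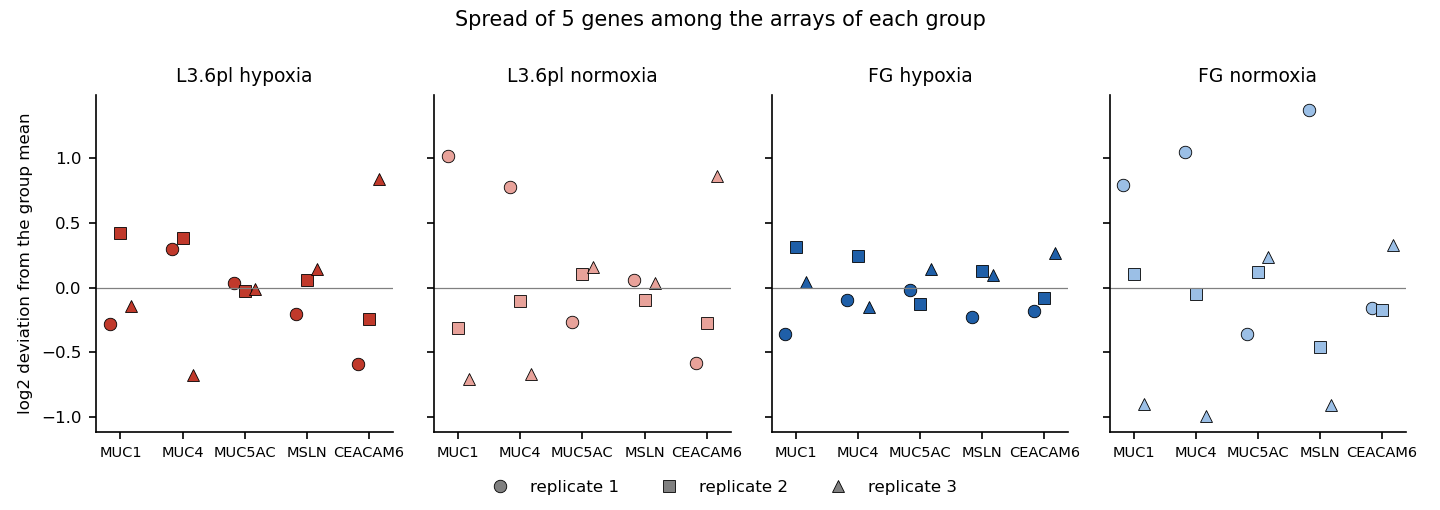
Deviation of each array from its group mean (log2) for MUC1, MUC4, MUC5AC, MSLN and CEACAM6, with the marker giving the replicate number. In normoxia array 1 lies above and array 3 below the mean for MUC1 and MUC4 in both lines, and for CEACAM6 array 3 is the highest in each group.

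Genes with patterns most like those of the called members were taken by Pearson r over the 12 arrays among genes that passed a filter on dim values, as a description. MUC1 was most like KLF11 (0.966), CDK19 (0.961) and PTK6 (0.950), and MUC16 like LOC100505715 (0.947), RBPJ (0.937) and BTN2A1 (0.933). MUC13 was most like GIPC2 (0.990), MAGEA6 (0.987) and ATP8A1 (0.985), and MSLN like TRAF5 (0.988), TENM1 (0.986) and UPK3B (0.986). The 12 values of MUC13 and MSLN, which share the difference between the lines, correlated at 0.983, and their deviations from the group means at 0.43. CEACAM6 was most like SLC37A2 (0.974), AGPAT2 (0.973) and FAM114A1 (0.972), and the CEACAM5 probe set 201884_at like SLC45A3 (0.984), TINAGL1 (0.970) and HAS3 (0.969).

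Of 14 other mucin genes measured, MUC2 and MUC5B, both gel-forming, were higher in L3.6pl than in FG in hypoxia, and MUC2 in normoxia. No other mucin passed between the lines without the block. Of all genes, 10.0% were higher and 6.72% lower in hypoxia, and 5.16% and 5.54% in normoxia. With the block, 2 of these mucins were higher and 2 lower in hypoxia, where 30.0% of all genes passed. MUC2 read 10.67, 10.83 and 9.05 in hypoxic L3.6pl and 5.79, 5.93 and 5.66 in hypoxic FG, a 20.9-fold difference (4.39 ± 0.42, adjusted p = 6.61e-05). It read 10.53, 9.80 and 9.35 in normoxic L3.6pl and 5.88, 5.50 and 5.90 in normoxic FG, a 17.5-fold difference (4.13 ± 0.42, adjusted p = 0.000139). All FG values of MUC2 lay below the median of all genes, 6.30, with no detection call, so both folds rest on a dim signal. MUC5B was 5.06-fold higher in hypoxia (2.34 ± 0.51, adjusted p = 0.00954), and in normoxia its difference of 1.43 (adjusted p = 0.111) passed with the block. The direction of MUC2, higher in L3.6pl, was thus opposite to that of MUC13 and MSLN. With hypoxia, OVGP1, the oviduct mucin, fell in both lines, by 0.54 in L3.6pl and 0.41 in FG, where 2.97% and 6.47% of all genes fell. The L3.6pl call ended without L3.6pl hypoxia 1, L3.6pl hypoxia 2 or L3.6pl normoxia 2, and the FG call without any 1 of 10 arrays, all but L3.6pl hypoxia 1 and 3.

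The 15 other CEACAM family genes measured were further CEACAM genes, among them CEACAM19, and pregnancy-specific glycoprotein (PSG) genes. None of these 15 passed in limma in any of the 5 comparisons or at any removal of 1 array. At an unadjusted p below 0.05 there was 1 for hypoxia in FG and 0 in each of the other 4 comparisons.

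Among 17 genes of O-glycan initiation and core building, 3 were higher and 1 lower in L3.6pl than in FG in hypoxia. In normoxia 4 were higher and 2 lower, a total that fell to 3 without L3.6pl normoxia 2. Of all genes, 10.0% were higher and 6.72% lower in hypoxia, and 5.16% and 5.54% in normoxia. With the block 4 of the list were higher and 4 lower in hypoxia, and 7 and 4 in normoxia, where 30.0% and 23.1% of all genes passed. GCNT3, which makes core branches on mucins, was 5.26-fold higher in hypoxia (2.40 ± 0.22, adjusted p = 5.58e-05) and 8.08-fold higher in normoxia (3.01 ± 0.22, adjusted p = 1.47e-05). Its FG values, 5.15 to 5.78, lay below the median of all genes, 6.30, so these folds also rest on a dim signal. GALNT12, a transferase that starts O-glycans, was higher by 1.42 and 1.96, and GALNT7, a later-acting transferase of that family, was lower, with differences of -0.83 and -1.35. With hypoxia 2 of the list fell in L3.6pl and 1 in FG, and none rose, where 2.97% and 6.47% of all genes fell. In FG 3 passed without L3.6pl hypoxia 3 (2899 of all 19775 genes) and 2 without L3.6pl hypoxia 2 (1967). With all arrays 2117 genes passed there. GALNT12 fell by 1.10 in L3.6pl (adjusted p = 0.00727) and GALNT7 by 1.27 in FG (adjusted p = 0.00246). GALNT7 also fell by 0.75 in L3.6pl (adjusted p = 0.0409), a call that ended without any 1 of 10 arrays, all but FG normoxia 1 and L3.6pl hypoxia 3.

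Of 20 enzymes that extend or cap O-glycans, 3 were higher and 2 lower in L3.6pl than in FG in hypoxia. In normoxia 2 were higher and 3 lower, a total that fell to 3 without L3.6pl normoxia 2 or 3. Of all genes, 10.0% were higher and 6.72% lower in hypoxia, and 5.16% and 5.54% in normoxia. With the block 4 of the list were higher and 4 lower in hypoxia, and 3 and 5 in normoxia, where 30.0% and 23.1% of all genes passed. FUT4, a fucosyltransferase, was lower, with differences of -2.03 in hypoxia (adjusted p = 3.76e-05) and -3.67 in normoxia (adjusted p = 6.52e-07), and so was ST6GAL1, a sialyltransferase, with -1.99 and -2.91. B4GALT5, a galactosyltransferase, was higher by 1.80 and 2.02. With hypoxia 2 of the list passed in FG, where 2117 of all 19775 genes passed. It was 4 there without FG hypoxia 3 (1816 genes) and 5 without L3.6pl hypoxia 3 (2899 genes). In L3.6pl 1 passed, where 1357 of all 19775 genes passed, and 0 to 2 of the list passed over the removals. FUT4 fell by 1.60 ± 0.18 in FG (adjusted p = 0.000524) and ST6GAL1 by 1.28 ± 0.24 (adjusted p = 0.00709). In L3.6pl their differences were 0.04 and -0.36, with adjusted p of 0.936 and 0.449, and no gene of the list passed the limma test of the difference between the lines' effects (4 had an unadjusted p below 0.05, and 1 passed without FG hypoxia 3).

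Of 18 shedding proteases and binding partners, 3 rose and 1 fell with hypoxia in L3.6pl, and 3 rose and 2 fell in FG. Of all genes, 3.89% rose and 2.97% fell in L3.6pl, and 4.24% rose and 6.47% fell in FG. ADAM17, which can shed MUC1, rose by 0.69 in L3.6pl (adjusted p = 0.0286) and by 0.77 in FG (adjusted p = 0.0128), and ADAM9 by 0.55 and 0.50. Each of these 4 calls ended without hypoxia 2 or normoxia 2 of its line, among others. Over the removals of 1 array the number called lay between 0 and 4 in L3.6pl, where none was called without L3.6pl hypoxia 2 or L3.6pl normoxia 2, and between 1 and 5 in FG, where 1 was called without FG hypoxia 2 or FG normoxia 2. ERBB3, a receptor that pairs with ERBB2, fell by 1.05 in FG (adjusted p = 0.00199). Between the lines 3 were higher and 3 lower in hypoxia, and 2 and 2 in normoxia. Of all genes, 10.0% were higher and 6.72% lower in hypoxia, and 5.16% and 5.54% in normoxia. With the block 6 of the list were higher and 3 lower in hypoxia, and 4 and 3 in normoxia, where 30.0% and 23.1% of all genes passed. ADAM9 was lower in L3.6pl, with -1.46 in hypoxia and -1.52 in normoxia, as was LGALS3, which encodes the MUC1-binding galectin-3, with -1.09 and -1.21. LGALS9 was higher by 1.19 and 1.10.

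Of 23 factors known to act on mucin genes, mostly transcription factors, 6 rose and 1 fell with hypoxia in each line. Of all genes, 3.89% rose and 2.97% fell in L3.6pl, and 4.24% rose and 6.47% fell in FG. In L3.6pl 11 of the list passed without L3.6pl hypoxia 3, where 2436 of all 19775 genes passed, against 1357 with all arrays. KLF4 rose by 2.24 ± 0.29 in L3.6pl (adjusted p = 0.00176) and by 3.46 ± 0.29 in FG (adjusted p = 0.000136). GATA6, a factor of foregut epithelium, rose by 1.39 and 1.90, and HES1, a Notch target, by 0.84 and 1.59. EHF, an epithelial ETS factor, fell by 1.88 in FG (adjusted p = 0.000580), where its L3.6pl difference was -0.71 (adjusted p = 0.0792). FOXA1 fell by 0.77 in L3.6pl (adjusted p = 0.00535). Between the lines, 4 were higher and 2 lower in L3.6pl in hypoxia, and 6 were higher and 1 lower in normoxia. Of all genes, 10.0% were higher and 6.72% lower in hypoxia, and 5.16% and 5.54% in normoxia. EHF was higher by 2.13 in hypoxia and 0.95 in normoxia, and EPAS1, a hypoxia-inducible factor subunit, by 1.76 and 1.73. HIF1A was higher by 0.53 in hypoxia and 0.89 in normoxia, and ELF3 was lower in normoxia, with -1.12. Of the 12 removals of 1 array, 5 ended the HIF1A call in hypoxia. In normoxia 3 ended that of EPAS1 and 2 that of EHF. With the block 5 were higher and 5 lower in hypoxia, where 30.0% of all genes passed. Without the block the total called fell to 3 in hypoxia without FG hypoxia 2 or L3.6pl hypoxia 2 and to 3 in normoxia without FG normoxia 2 or L3.6pl normoxia 1.

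Of 14 partners in mucus gels and secretion, 2 rose with hypoxia in L3.6pl and 1 in FG, where 3.89% and 4.24% of all genes rose. In FG 3 passed without L3.6pl hypoxia 3, where 2899 of all 19775 genes passed, against 2117 with all arrays. TFF1, a trefoil peptide secreted with mucins, rose by 1.16 ± 0.27 in L3.6pl (adjusted p = 0.0288, ending without any L3.6pl array but hypoxia 1) and by 2.20 ± 0.27 in FG (adjusted p = 0.000852). CLCA4 rose by 2.63 ± 0.55 in L3.6pl (adjusted p = 0.0169, ending without L3.6pl hypoxia 2, L3.6pl normoxia 2 or L3.6pl normoxia 3) and averaged 7.20 in hypoxic L3.6pl and 3.36 in hypoxic FG, a log2 difference of 3.83 ± 0.55 (adjusted p = 0.000837); the FG signal is dim and has no detection call. Between the lines 2 were higher and 1 lower in L3.6pl in hypoxia, and 1 and 1 in normoxia, with SYTL2 lower in both. The normoxia total fell to 1 without any 1 of 8 arrays, all but FG hypoxia 1 and 3 and L3.6pl hypoxia 2 and 3. Of all genes, 10.0% were higher and 6.72% lower in hypoxia, and 5.16% and 5.54% in normoxia. With the block 4 of the list were higher and 2 lower in hypoxia, and 3 and 1 in normoxia, where 30.0% and 23.1% of all genes passed. Of 5 goblet cell markers, SPINK4 was higher in L3.6pl in both conditions, and the mean over the list was 5.25 to 5.47 in hypoxic L3.6pl, 5.12 to 5.46 in normoxic L3.6pl, 4.95 to 5.11 in hypoxic FG and 4.90 to 5.01 in normoxic FG.

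**Figure D5:**
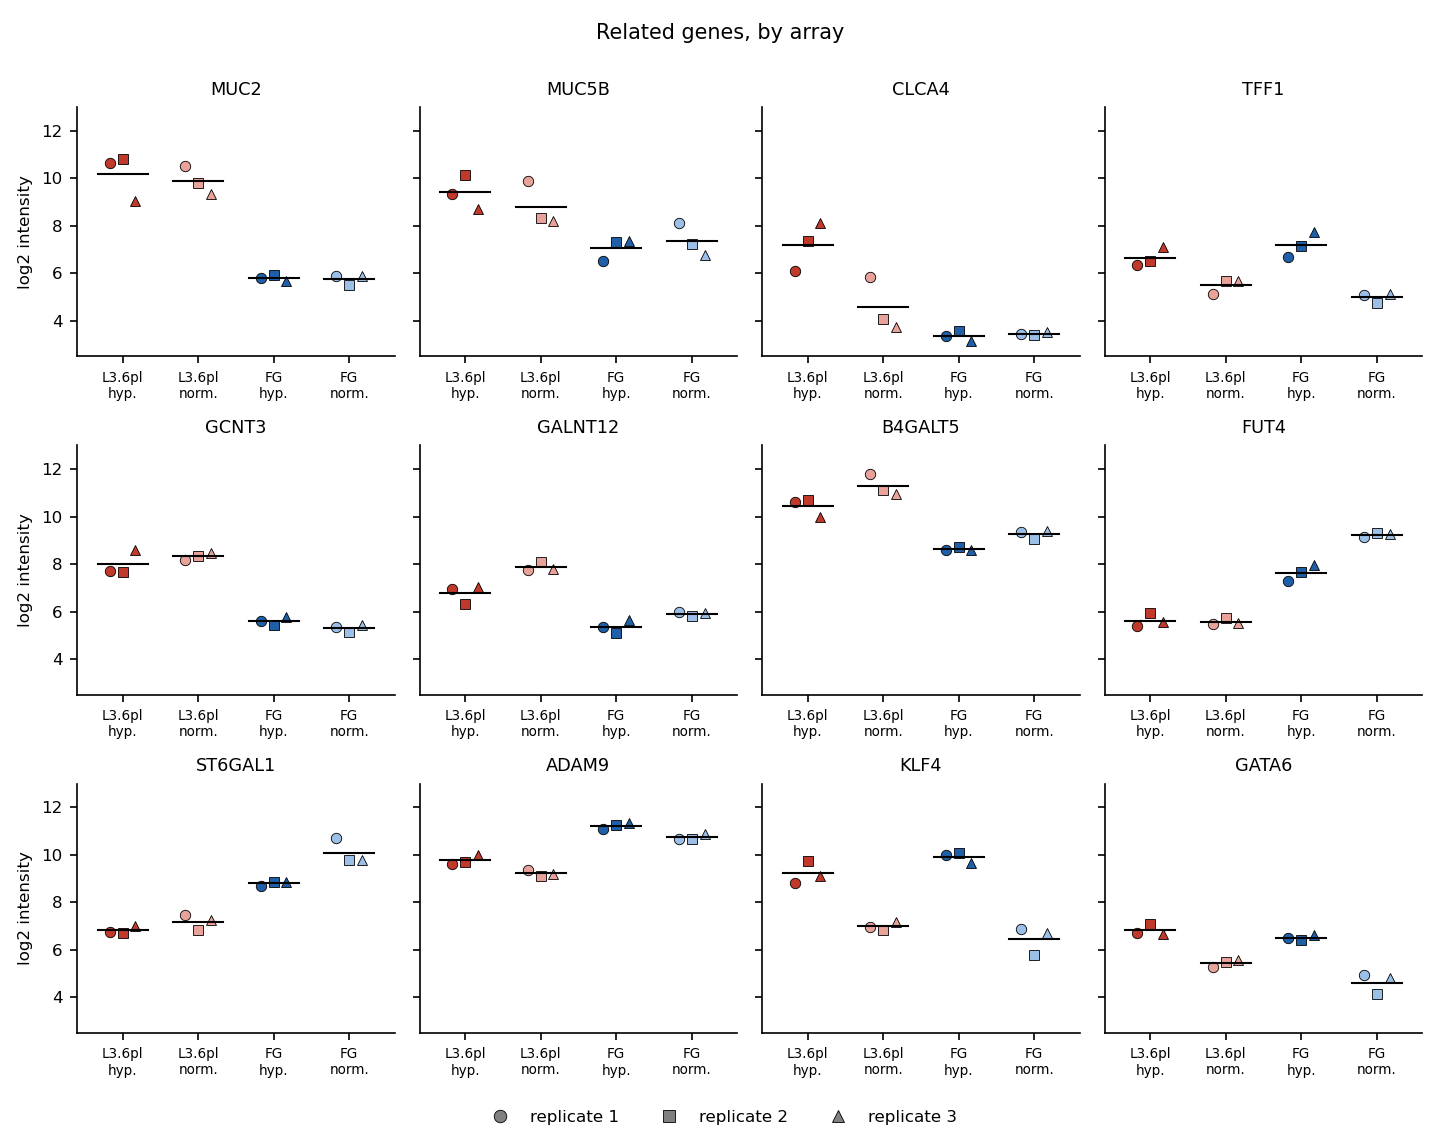
Log2 intensity of 12 genes related to mucin expression and glycosylation in the 12 arrays, by group, with 1 point per array and the group mean as a line. MUC2, GCNT3, GALNT12 and B4GALT5 are higher in L3.6pl, FUT4, ST6GAL1 and ADAM9 are lower, and KLF4, GATA6 and TFF1 rise with hypoxia in both lines.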

How the data were processed

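RNA of 12 samples was hybridised to Affymetrix arrays, 1 array each, with 54675 probe sets. The authors deposited linear intensities that had been normalized with RMA, per the submitters' processing notes, and no source used here says how the log values were turned back. Intensities were put on a log2 scale. Left out were 62 control probe sets, 1801 that name several genes and all those that name no gene. Each gene was read from its brightest probe set, by the mean of the 12 arrays. One mean per group was fitted with limma 3.58.1 in R 4.3.3, with 5 contrasts, empirical Bayes moderation and Benjamini-Hochberg adjustment over 19775 genes, and again over 41091 probe sets, at a threshold of 0.05. The procedure was tested on simulated data. With 3 against 3 arrays the smallest two-sided exact permutation p is 0.1.

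The members, the related gene lists, the markers and the 3 arrays left out together were chosen with earlier results of these data known. Those 3 arrays were FG normoxia 1, L3.6pl normoxia 1 and L3.6pl hypoxia 3. L3.6pl normoxia 1 had a mean correlation of 0.989 with its group, above that of FG normoxia 2 or 3 with theirs. The genes named are the members, the hypoxia genes ADM, NDRG1 and EGLN3, up to 4 called genes of each list and comparison with the smallest adjusted p, and the 3 genes most like each called member (1 gene was left out of this likeness). The likeness of single probe sets and the choice among list genes named for their size followed the values.

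Between the lines same-numbered arrays deviated together (every correlation over 0.1), so the number was also used as a block within each oxygen condition, an alternative added after seeing the data. Within a line the numbers did not pair hypoxic with normoxic arrays, with correlations of -0.04 to 0.41 in L3.6pl and -0.22 to 0.26 in FG. Alternatives were cyclic loess, median centring, the mean of a gene's probe sets, a filter on dim genes, other moderation, array weights, fewer groups in the fit and leaving out arrays. Promoter windows came from RefSeq, build GRCh38.p14. The depth of an array is not a read count, and its values carry no detection call.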

Additional observations from a re-analysis of the deposited data

Results flagged for a closer look

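The CEACAM5 probe set 201884_at was the 1 value of the members whose response to hypoxia differed between the lines by a test of the difference itself. The L3.6pl effect exceeded the FG effect by 2.95 ± 0.24 on the log2 scale (limma, adjusted p = 0.00340 over 41091 probe sets, of which 26 passed), and all 3 hypoxic L3.6pl arrays lay above every normoxic L3.6pl and every FG array. The other CEACAM5 probe set, 217291_at, had a difference of 0.02 (adjusted p = 0.988).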

How the results depend on the processing

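The number of members called was recomputed under each alternative. A single number in parentheses gives how many of all 19775 genes were called. For hypoxia in L3.6pl the member count was 2 (1357). It was 3 with the mean of all probe sets (1408), which called CEACAM1, CEACAM5 and CEACAM6 but not MUC1. It was 3 with array weights (5192) and 3 without the 3 arrays left out together (4179). It was 1 with cyclic loess (1572) and 0 with the L3.6pl groups alone (797). Where every probe set of a gene had to pass in 1 direction it was 1. Over removals of 1 array it was 0 to 2, and 0 without L3.6pl normoxia 2 (508). In FG it was 1 (2117), against 2 without those 3 arrays (3871). Over removals it was 1 to 2, and 2 without FG normoxia 1 (2074). For L3.6pl against FG in hypoxia it was 3 (3310). It was 5 with the mean of all probe sets (3559) and 5 with the replicate block within each oxygen condition (5935). In normoxia it was 2 (2116). It was 5 with array weights (6623), 5 with that block (4576) and 4 without those 3 arrays (2581). Over removals it was up to 4, and 4 without L3.6pl normoxia 1 (1622). For the difference of the lines' effects it was 0 (5), against 1 with the mean of all probe sets (13). That member was CEACAM5 (1.49, limma adjusted p = 0.0468). With the mean of all probe sets CEACAM1 had 0.61 for hypoxia in L3.6pl (adjusted p = 0.00395), where the main value was -0.07, CEACAM5 had 1.66 there (adjusted p = 0.000124), where it was 0.03, and CEACAM5 had 1.98 in hypoxia and 0.49 in normoxia for L3.6pl against FG, where the main values were -0.04 and -0.06; the alternative brings in the probe sets that differed from the main one. MSLN with hypoxia in FG had 0.67 without FG normoxia 1 and 0.67 without the 3 arrays, and -0.47 to 0.67 over removals, where the main value was -0.01. With the replicate number as a block over all 12 arrays, 2, 1, 3, 3 and 0 members were called. The order is L3.6pl hypoxia, FG hypoxia, the lines in hypoxia, the lines in normoxia and the difference of effects. Of all genes, 2130, 2992, 4223, 2810 and 13 were called in that order. Within a line the replicate numbers did not pair hypoxic with normoxic arrays. The numbers of all genes called ranged from 508 to 5192 around 1357 in L3.6pl, 1029 to 5729 around 2117 in FG, 2142 to 5935 around 3310 between the lines in hypoxia, 1254 to 6623 around 2116 in normoxia, and 2 to 421 around 5 for the difference of effects. Of 1050 recomputed values of the member genes 1007 stayed on their side of the threshold, 14 no longer passed, 24 newly passed and 5 passed with the opposite sign; 69, these 5 included, had the opposite sign; the cause was not tested. Dim probe sets, with no detection call, limit the folds of MSLN, MUC13, MUC20 and the 3 CEACAM genes. Among the related genes they also limit those of MUC2, GCNT3, GALNT12, FUT4 and CLCA4.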

Other observations

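The genes next to the members were read as a description, with a rule chosen after the data were seen: the 5 nearest measured genes on each side, in RefSeq's order. Around MUC13, which was lower in L3.6pl, 3 of 10 neighbours were higher in L3.6pl than in FG in hypoxia and 2 in normoxia, and none was lower, with CCDC14 higher by 0.58 and 0.68 on the log2 scale. Around MSLN, 3 of 10 neighbours were lower in L3.6pl in hypoxia (METRN with -1.15, RPUSD1 with -1.11 and HAGHL with -0.43) and none passed in normoxia. Of all genes, 10.0% were higher and 6.72% lower in L3.6pl in hypoxia, and 5.16% and 5.54% in normoxia. Around MUC5AC, which did not pass between the lines, 3 of 10 neighbours were also higher in L3.6pl in hypoxia. Around CEACAM5, CEACAM6 was the 1 neighbour that rose with hypoxia in L3.6pl, and CEACAM7, CEACAM3, CEACAM4 and CEACAM21 differed by 0.01, -0.21, -0.02 and -0.02. Around MUC1, EFNA1, which encodes an ephrin, rose with hypoxia by 1.63 in L3.6pl and 2.20 in FG, and was lower in L3.6pl than in FG, with -2.35 in hypoxia and -1.78 in normoxia.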
